A study of Rattus norvegicus with 9 samples.

Results

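The cytosolic ribosomal protein genes were followed across the lumbar dorsal root ganglia (DRG) of diabetic and normal rats. Members were the genes whose array probe sets carried, as their only annotated symbol, Rpl or Rps followed directly by a digit, or Rplp0, Rplp1, Rplp2 or Rpsa, with the Rps6k kinases left out. No measured difference between samples entered that rule. It found 44 genes among the 10411 genes with a single symbol, 30 of the large subunit and 14 of the small subunit, on 50 probe sets. The probe set with the highest mean signal stood for each gene. Rplp1, Rplp2 and Rps19 had no probe set of their own by this rule, and 34 further probe sets that list a ribosomal protein gene among several symbols were kept apart.

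The samples were DRG from levels L4 to L6 of Sprague-Dawley rats, dissected 1 day after 1, 2 or 3 weeks of treatment. The groups were rats injected with streptozotocin (STZ, a toxin of the pancreatic beta cells that makes rats diabetic) and given FK1706, an immunophilin ligand that the sample labels shorten to FK, rats injected with STZ and given vehicle, and rats without STZ given vehicle. Each of the 9 arrays holds equal amounts of RNA from 5 rats, so every group has 1 pool per week and 3 arrays in all. Neither the rats' age nor the dose of FK1706 is given in the sources used here. The p-values measure the spread between pools, and a group difference that shifts between weeks adds to that spread.

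Ribosomal proteins, together with ribosomal RNA, build the small subunit, which reads the messenger RNA, and the large subunit, which joins amino acids. Their messenger RNAs are among the most abundant of most cells, and many begin with a run of pyrimidines, the terminal oligopyrimidine (TOP) motif, through which the kinase mTOR controls their translation. In sensory neurons, ribosomes fill the cell body, where they form the Nissl substance, and ribosomal protein messenger RNAs are also carried into axons.

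The tissue was checked against marker genes. Of 14 listed neuron markers 13 were measured, all above the filter on low signals described below, and their summed deposited signal ranged from 73726.1 to 87346.3 in STZ FK1706 arrays, from 72183.9 to 95947.9 in STZ vehicle arrays and from 74519.3 to 97904.9 in normal vehicle arrays. All 8 measured Schwann cell markers and all 6 measured satellite glia markers were also above the filter. After the normalization described below, all 8 Schwann cell markers were lower in STZ vehicle than in normal vehicle (median log2 difference -0.15). All 8 were also lower in STZ FK1706 than in normal vehicle (median -0.15), and 0 passed the limma threshold in either comparison. Of the satellite glia markers, 3 were higher and 3 lower in STZ vehicle than in normal vehicle. Skeletal muscle markers (12 of 13 measured) summed to 2295.6 to 4293.8 in STZ FK1706 arrays, 2593.3 to 4449.6 in STZ vehicle arrays and 3974 to 7994.9 in normal vehicle arrays. No measured marker was at 0. Of the 9 fibroblast markers, Col1a1 and Col3a1 fell in STZ vehicle against normal vehicle (limma adjusted p = 0.0104 each). The 2% trimmed mean of the deposited signals lay between 360 and 532 over the 9 arrays, and it was lower in each later week in every group, so the arrays were quantile-normalized before any comparison.

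The bases around the annotated starts of the members are shown first, because the pyrimidine run at the start of the messenger RNA is a known shared feature of this family. Each window holds 15 bases before and 15 bases from the start of the gene as RefSeq places it on build GRCr8, written 5′ to 3′ on the gene's strand, with its longest run of C and T in capitals. The genes shown are the brightest member, the stalk protein Rplp0, and members that the results below turn on, followed by 2 paralogs.
Rps23, chr2:23814502-23814531, plus strand: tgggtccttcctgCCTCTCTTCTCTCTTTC
Rpl27a, chr1:172974558-172974587, plus strand: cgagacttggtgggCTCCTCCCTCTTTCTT
Rplp0, chr12:46718376-46718405, minus strand: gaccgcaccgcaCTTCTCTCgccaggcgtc
Rpl37a, chr9:81748076-81748105, plus strand: gcatgcccgttgcgTCTCTTCCTCTTCggg
Rpl13a, chr1:104748899-104748928, minus strand: CCTCTTCCTTTCCTaggcggctgccgaaga
Rps15a, chr1:181860270-181860299, minus strand: cggcgTTTTCTTTCCacagtcaccatggtg
Rpl39, chrX:121195882-121195911, minus strand: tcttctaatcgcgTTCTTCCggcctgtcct
Rps6, chr5:106420526-106420555, minus strand: gacgCCTCCTaggcggtcggctgtgtcaag
Rpl7l1, chr9:21695703-21695732, plus strand: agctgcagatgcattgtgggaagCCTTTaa
Rpl3l, chr10:14258431-14258460, plus strand: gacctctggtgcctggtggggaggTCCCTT

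RefSeq's table held a window for 39 of the 44 members. A run of at least 8 consecutive bases that are C or T lay on the gene's strand in 23 of those 39 windows (59%), against 3831 of 33469 windows of all genes (11.4%), and the median longest run was 9 bases in the members and 4 in all genes. The same search on the opposite strand, a run of at least 8 bases that are A or G, found 1 of 39 member windows (2.56%) and 13% of all windows. Rps23 and Rpl27a have runs of 17 and 16 bases in the window that cross the annotated start. Both reach the last base of the window, so the full runs may be longer. Rps6, whose protein is a main substrate of the S6 kinases, has a longest run of 6 bases in this window. A run found here is a description of annotated sequence, and a window without one says only that these letters are not in it.

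Most members were bright. On the deposited scale, an intensity with no unit, the brightest were Rps23, whose protein sits in the decoding centre (mean 8673 over 9 arrays), Rps16 (7646), Rpl27a (7582), Rpl7a (7203) and Rpl3, whose protein reaches towards the peptidyl transferase centre (7159). Brightness depends on the probes as well as on the amount of RNA, so no level of one gene is set against that of another. Of the 44 members, 36 were in the brightest 5% of all probe sets. The 40 members kept by the filter described below held between 1.95% and 2.05% of the summed signal in all 9 arrays.

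Genes were tested if their mean signal reached the 40th percentile over all probe sets, a signal of 149, which kept 40 of 44 members and 6995 genes in all. The members left out were Rps27l (mean 130), Rps4y2 (56.4), Rpl30 (52.5) and Rpl3l (16.8). Rps27l, a paralog of Rps27, had 141, 122 and 118 in STZ FK1706 arrays of weeks 1, 2 and 3, against 151, 140 and 88.2 in STZ vehicle arrays and 178, 104 and 127 in normal vehicle arrays. Rpl30, a large-subunit protein, had signals between 38.4 and 87.3. The paralog Rpl3l, which replaces Rpl3 in striated muscle, had 18.6, 14.7 and 11.4 in STZ FK1706 arrays, 11.7, 24.5 and 12.3 in STZ vehicle arrays, and 12.1, 42.3 and 3.5 in normal vehicle arrays, so its one higher value was in the week 2 normal pool. The paralog Rps4y2 ranged from 12.1 to 99.3 with overlapping groups. The remaining dim members were Rpl39 (mean 342) and Rpl7l1, a paralog of Rpl7 (596), both above the filter.

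The brightest members were checked for saturation, since a ceiling would compress differences. Rps23 was the highest member in all 9 arrays, with 9775, 8422 and 7381 in STZ FK1706 arrays of weeks 1, 2 and 3, 9472, 8422 and 6950 in STZ vehicle arrays, and 10384, 9461 and 7790 in normal vehicle arrays. These values were 52.9% to 66.8% of the highest probe set of the same array, and 34 to 46 probe sets lay above them. No pile-up at a common value was seen: 1 probe set held the maximum in each array. Of the 360 values of the 40 tested members, 0 were shared with another member in the same array. Each value summarizes the probes of a probe set, so saturated single probes need not give shared values. These counts therefore describe the deposited values and do not test saturation.

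The deposited signal fell over the weeks, and the members were set beside other probe sets of like brightness. A fall that comes from scaling a whole array would carry a saturated probe set with it, so these values describe the members and do not test saturation. From week 1 to week 3 the deposited signal was lower in all 3 groups for 38 of the 40 members. Among probe sets in the brightest 2%, the median log2 difference of week 3 minus week 1 was -0.43 for 22 members, against -0.41 for 278 other probe sets. In the next class, the 95th to 98th percentile, it was -0.42 for 14 members and -0.48 for 452 others. With the class drawn at the brightest 1% it was -0.43 for 10 members and -0.38 for 142 others, and at the brightest 5% it was -0.43 for 36 members and -0.45 for 730 others. In each of these classes the members' median fall was near that of the other probe sets. Scanner saturation flags and single probe intensities were not used here.

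**Figure D1:**
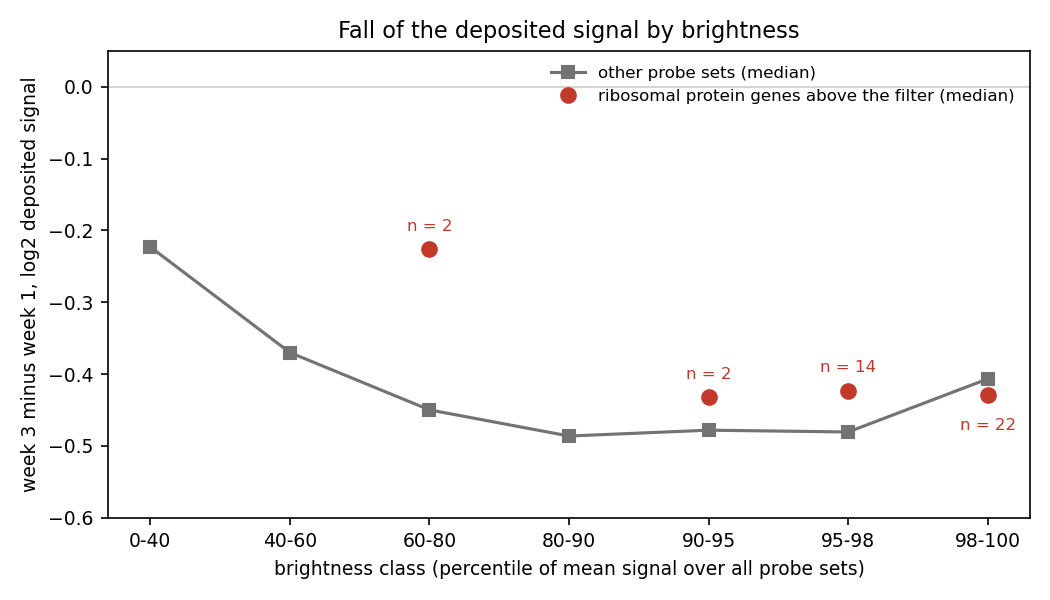
Median log2 difference of the deposited signal, week 3 minus week 1, by brightness class (percentile of mean signal over all probe sets). Grey squares are all other probe sets and red circles the tested ribosomal protein genes, with the number of genes beside each circle; in the brightest class the 22 members lie at -0.43 and the 278 other probe sets at -0.41.

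All further levels are log2 signals, which are log2 of the deposited value plus an offset of 18.7, quantile-normalized over the 9 arrays, and all differences are log2 differences on that scale. Against each gene's own mean over the 9 arrays, the median of the 40 members lay between -0.03 (STZ vehicle, week 1) and 0.05 (normal vehicle, week 3). No array held the family as a whole far from the others. Because the ganglia were pooled as whole tissue, fewer cells of a type and less RNA per cell cannot be told apart in any value here.

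**Figure D2:**
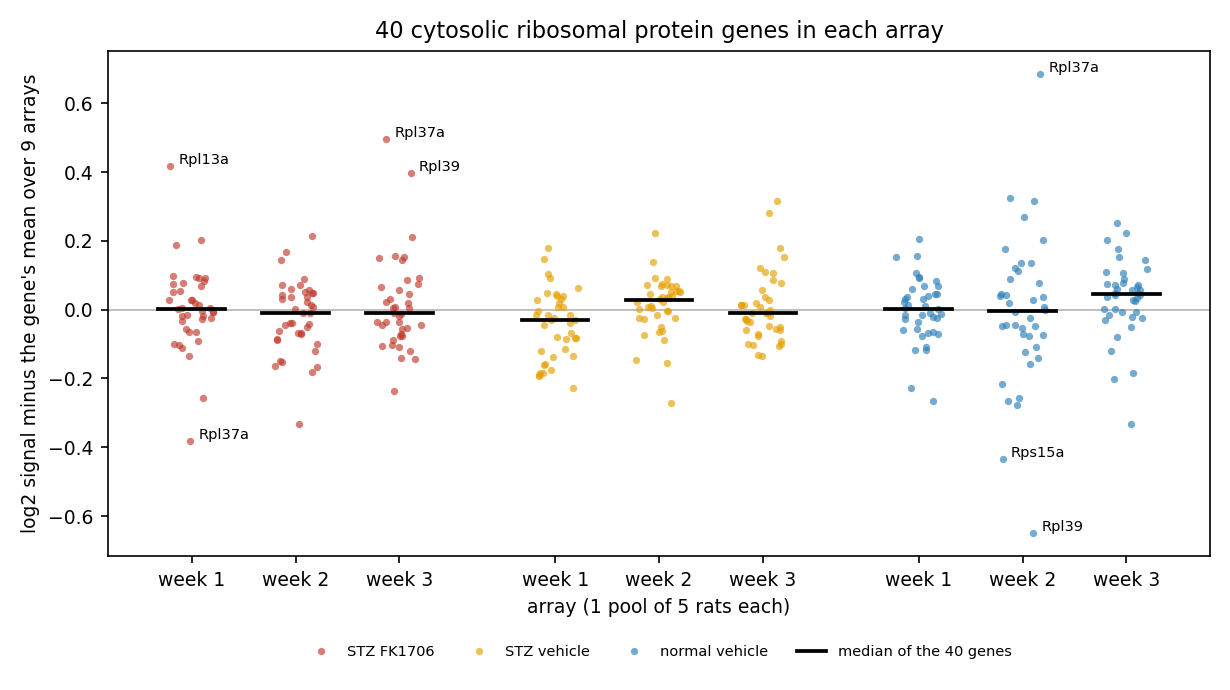
Log2 signal of the 40 tested ribosomal protein genes in each of the 9 arrays, minus the mean of that gene over the 9 arrays. Each point is a gene and each bar the median of the 40, which lies between -0.03 and 0.05 in every array; genes more than 0.35 from their own mean are named.

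STZ vehicle was first set against normal vehicle, which asks whether the family differs in diabetic rats. No member passed the test: 0 of 40 had a limma adjusted p under 0.05, where 6 of 6995 genes did (0.0858%). At an unadjusted p under 0.05 there was 1 member, Rpsa, against 8.66% of all genes. The median difference of the members was -0.02 and that of all genes 0.00, with 18 members higher and 22 lower (20 and 20 with arrays scaled to a common trimmed mean, 5 and 35 on the deposited scale). Large-subunit members had a median of -0.03 (28 genes) and small-subunit members of 0.01 (12 genes).

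The intervals show how large a change these arrays could have hidden. For all 40 members the 95% interval of STZ vehicle minus normal vehicle lay inside a 1.5-fold change either way, which held for 89.6% of all genes. For 36 of 40 members it lay inside 1.3-fold, which held for 3841 of 6995 genes. The median distance from a difference to its limit was 0.17 log2 units in the members and 0.25 in all genes. Bright genes have narrower intervals in general: of 555 other genes in the brightest 5%, 548 lay inside 1.5-fold and 512 inside 1.3-fold in this comparison.

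Small-subunit members held the highest differences of STZ vehicle against normal vehicle. Rps15a, a small-subunit protein, had 12.17, 12.24 and 12.33 in STZ vehicle pools of weeks 1, 2 and 3, against 12.36, 11.72 and 11.95 in normal vehicle pools. The STZ values lay within a narrow band and the normal values on both sides of it. The difference was 0.24 (SE 0.123, adjusted p = 0.594), and without the week 1 normal pool it was 0.46 (adjusted p = 0.0469). That was the only member called under any removal of 1 array.

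Rpsa, a small-subunit protein also described as the laminin receptor precursor, had 12.14, 12.12 and 12.27 in STZ vehicle pools, against 11.89, 12.13 and 11.93 in normal vehicle pools. The groups met in week 2 and were apart in weeks 1 and 3. The difference was 0.19 (SE 0.078, adjusted p = 0.531). Its other 2 probe sets gave -0.08 and -0.02, so the probe sets of Rpsa did not share a direction.

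The lowest differences were those of Rpl21, Rps15 and Rpl41. Rpl21, a large-subunit protein, had 10.44, 10.64 and 10.57 in STZ vehicle pools, against 10.72, 10.83 and 10.66 in normal vehicle pools, so the groups did not overlap. Its difference was -0.19 (SE 0.090, adjusted p = 0.579). Without overlap, 3 members lay below normal vehicle and 0 above, where 487 and 402 of 6995 genes did. Rps15, whose protein has a tail that reaches the decoding site, had a difference of -0.16 (adjusted p = 0.657), with -0.13, -0.32 and -0.03 in weeks 1, 2 and 3. Rpl41, the smallest ribosomal protein, had -0.16 (adjusted p = 0.641), but 0.10 in week 1. Rpl26, a large-subunit protein, had 0.15 (adjusted p = 0.658), of which 0.50 came from week 2 and -0.10 and 0.05 from weeks 1 and 3.

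Counting signs alone, 9 members were lower in STZ vehicle than in normal vehicle in each of the 3 weeks, where 16.2% of all genes were, and 1 (Rpl19) was higher in each week, where 14.7% of all genes were. Those 9 were Rpl4, Rpl18, Rpl21, Rpl22, Rpl23a, Rps15, Rps23, Rps24 and Rps28, with differences between -0.19 and -0.08, none of which passed the test. Set against those shares, the lower count is somewhat above and the higher count below the background, and neither count was tested. With the quantile curve set by the other genes alone, the counts were 11 lower and 3 higher, where 16.2% and 14.6% of all genes were. On the deposited scale, where all genes are shifted by a median of -0.10, they were 20 lower and 0 higher, where 32.5% and 4.29% of all genes were.

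STZ FK1706 was next set against STZ vehicle, which asks whether treatment changed the family in diabetic rats. No member passed (0 of 40 by limma adjusted p), and neither did any of the 6995 genes (0%). At an unadjusted p under 0.05 there were 0 members against 3.17% of all genes. The median difference was 0.00 in the members and 0.00 in all genes, with 22 members higher and 18 lower (26 and 14 with arrays scaled to a common trimmed mean, 7 and 33 on the deposited scale). The 95% interval lay inside 1.5-fold for all 40 members, against 92.2% of all genes. It lay inside 1.3-fold for 38 members, against 4315 of 6995 genes and 539 of 555 other genes in the brightest 5%.

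Differences ran from -0.10 to 0.18. Rpl39, a short protein that lines the exit tunnel of the large subunit, had 8.39, 8.70 and 8.89 in STZ FK1706 pools, against 8.26, 8.40 and 8.77 in STZ vehicle pools. It was higher in each week, and the ranges of the groups overlapped. Its difference of 0.18 had an SE of 0.161 (adjusted p = 0.999). Rpl27a, a large-subunit protein, had 12.98, 12.98 and 12.95 in STZ FK1706 pools, against 12.81, 12.86 and 12.90 in STZ vehicle pools, without overlap. Its difference was 0.11 (SE 0.052, adjusted p = 0.999). Without overlap, 2 members lay above STZ vehicle and 0 below, where 227 and 231 of 6995 genes did. Rps9, which lies at the entry of the messenger RNA channel, had a difference of 0.12 that came from week 1 alone (0.39, against 0.00 and -0.01 in weeks 2 and 3). The lowest were Rpl7a (-0.10), Rpl34 (-0.09) and Rpl18 (-0.08), large-subunit proteins with adjusted p of 0.999 each.

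By sign, 5 members were higher in STZ FK1706 in each of the 3 weeks (12.3% of all genes were) and 4 were lower in each (11.5% of all genes). Both counts are near the background. The 5 were Rpl23a, Rpl27a, Rpl39, Rps6 and Rps23, and the 4 were Rpl5, Rpl7l1, Rpl18 and Rps15a. On the deposited scale, where all genes are shifted by a median of -0.07, the counts were 2 higher and 12 lower, where 4.2% and 25.1% of all genes were, and the difference of Rps6 was -0.02 in place of 0.03.

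STZ FK1706 was also set against normal vehicle, a comparison that shares arrays with both of the others. Of 40 members 0 passed, against 1 of 6995 genes (0.0143%). At an unadjusted p under 0.05 there were 3 members (Rpl18, Rpl27a and Rpsa), against 8.23% of all genes. The median difference was -0.02 in the members and 0.00 in all genes, and the 95% interval lay inside 1.5-fold for 39 of 40 members, where 89% of all genes did. The exception was Rpl39, with a difference of 0.33 and an interval from -0.03 to 0.68.

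Rpl18, a large-subunit protein, had 11.47, 11.30 and 11.36 in STZ FK1706 pools, against 11.53, 11.64 and 11.51 in normal vehicle pools, with no overlap. The difference was -0.19 (SE 0.070, adjusted p = 0.542). On the deposited scale it was -0.37 (adjusted p = 0.0488), where the median of all genes was -0.17. Without overlap, 3 members lay below normal vehicle and 1 above, where 424 and 382 of 6995 genes did. Rpsa had 12.21, 12.28 and 12.06 in STZ FK1706 pools, against 11.89, 12.13 and 11.93 in normal vehicle pools, a difference of 0.20 (SE 0.078, adjusted p = 0.553). Its other probe sets gave -0.23 and 0.00. Rpl27a had a difference of 0.13 (SE 0.052, adjusted p = 0.589).

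Other ends of the range were Rps15a (0.19, adjusted p = 0.681), Rps15 (-0.17, adjusted p = 0.648) and Rps24 (-0.15, adjusted p = 0.627). Rps24, a small-subunit protein mutated in some patients with Diamond-Blackfan anaemia, had -0.36, -0.07 and -0.02 in weeks 1, 2 and 3, so most of its difference came from week 1. By sign, 3 members were higher in each week (13.3% of all genes were) and 7 were lower in each (14.2% of all genes). Without quantile normalization, on the deposited scale with its median shift of -0.17 in all genes, the counts were 0 higher and 28 lower, where 1.66% and 47.8% of all genes were.

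**Figure D3:**
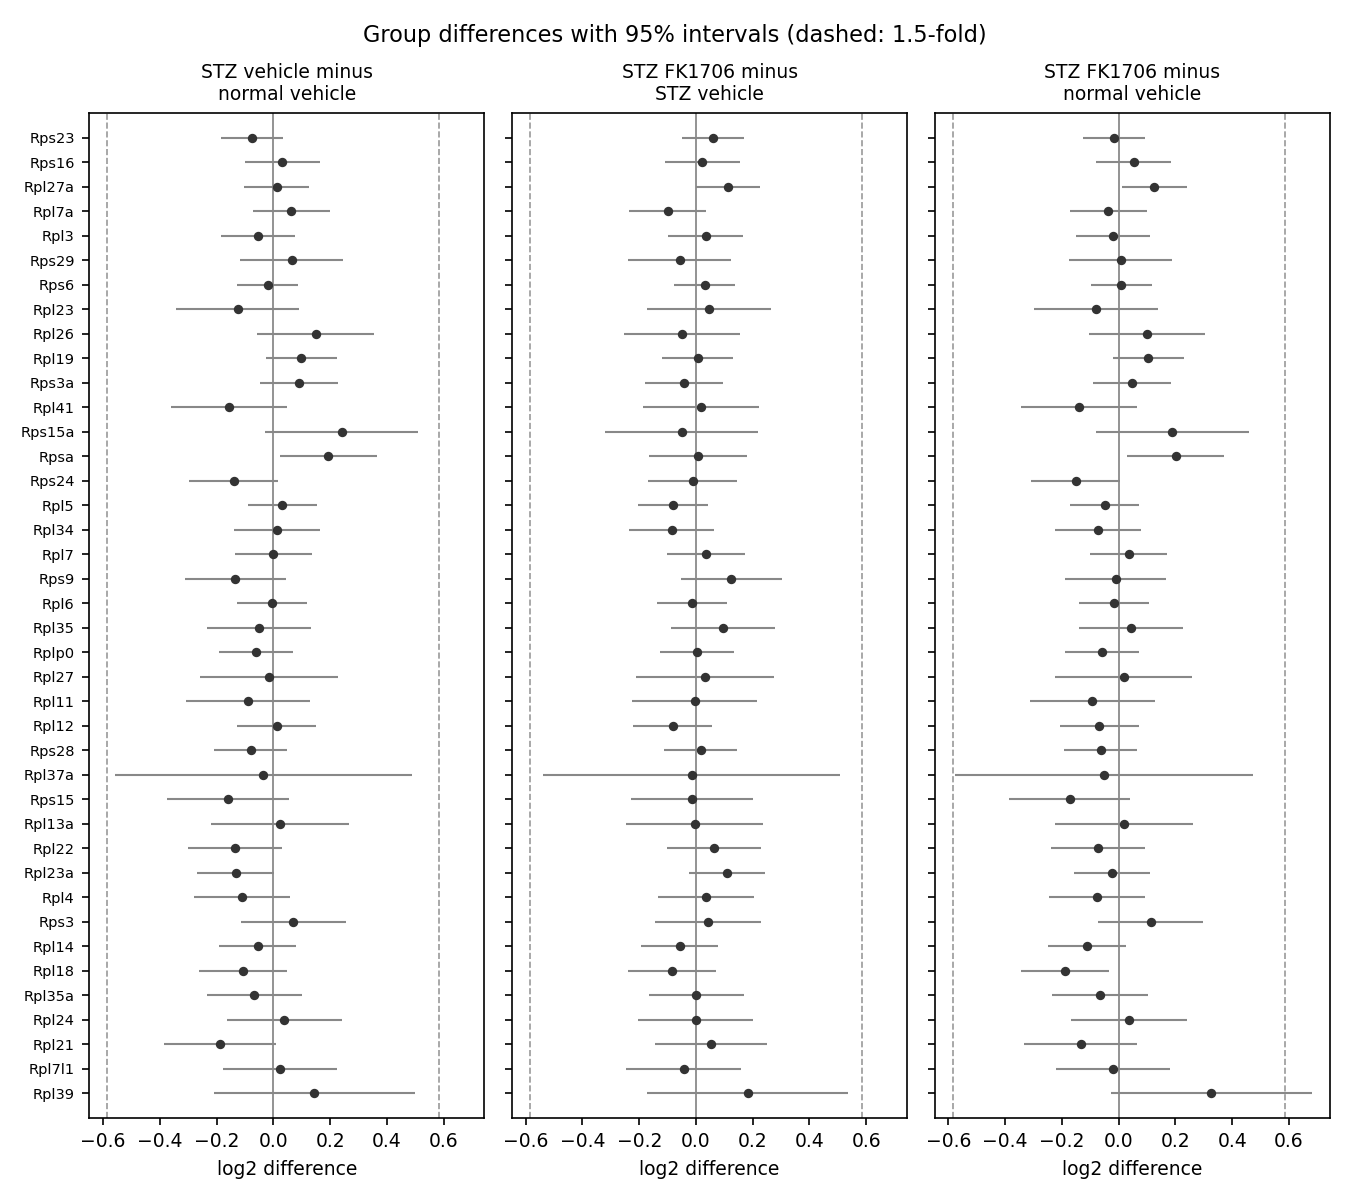
Log2 difference of each of the 40 tested members with its 95% interval in the 3 group comparisons, ordered from the brightest at the top to the dimmest at the bottom; dashed lines mark a 1.5-fold change. Every interval lies inside the dashed lines except that of Rpl39 in STZ FK1706 minus normal vehicle.

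Rps6, Rplp0 and Rpl3 differed between groups by less than their SE or by about as much. Rps6 had 12.77, 12.79 and 12.71 in STZ FK1706 pools, 12.72, 12.77 and 12.70 in STZ vehicle pools and 12.75, 12.75 and 12.74 in normal vehicle pools. Its differences were -0.02 (STZ vehicle minus normal vehicle), 0.03 (STZ FK1706 minus STZ vehicle) and 0.01 (STZ FK1706 minus normal vehicle), each with an SE of 0.049. Rplp0, the stalk protein often used as a reference gene in quantitative PCR, had 11.90, 11.93 and 11.83 in STZ FK1706 pools, 11.95, 11.83 and 11.87 in STZ vehicle pools and 11.94, 11.99 and 11.90 in normal vehicle pools. Its 3 differences were -0.06, 0.00 and -0.06 in the same order (SE 0.060). Rpl3 had -0.05, 0.03 and -0.02 (SE 0.060).

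The paralog Rpl7l1, which in human cells is found in maturing large subunits, had 9.22, 9.29 and 9.17 in STZ FK1706 pools, 9.29, 9.34 and 9.19 in STZ vehicle pools and 9.18, 9.24 and 9.32 in normal vehicle pools. The groups overlapped, and its differences were 0.02 for STZ vehicle minus normal vehicle and -0.04 for STZ FK1706 minus STZ vehicle. A dimmer probe set of the same gene gave 0.03 and 0.02.

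Sampling times were compared over the 3 groups together. Of 40 members 0 passed between week 2 and week 1, week 3 and week 2, or week 3 and week 1, and in each case 1 of 6995 genes did (0.0143%). At an unadjusted p under 0.05 there were 2 members between weeks 2 and 1 (Rpl13a and Rps28), against 5.79% of all genes, 2 between weeks 3 and 2 (Rpl6 and Rpl39), against 10.1%, and 4 between weeks 3 and 1 (Rpl13a, Rpl19, Rpl35a and Rpl39), against 12.8%. The median differences of the members were 0.01 in each of the 3 comparisons. These describe levels relative to the other genes of an array, since quantile normalization removes the fall of the deposited signal. On the deposited scale the members' medians were -0.16, -0.25 and -0.43, close to those of all genes (-0.20, -0.23 and -0.43).

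Rpl13a had the lowest differences in week 2 against week 1 and in week 3 against week 1. Its protein belongs, in human and mouse macrophages, to a complex that silences inflammatory messenger RNAs after it leaves the ribosome. Its log2 signal in weeks 1, 2 and 3 was 12.12, 11.54 and 11.47 in STZ FK1706 pools, 11.88, 11.43 and 11.82 in STZ vehicle pools and 11.79, 11.66 and 11.63 in normal vehicle pools. Week 1 was the highest in every group, and the STZ vehicle pool of week 3 was nearly as high. Week 2 minus week 1 was -0.39 (SE 0.110, unadjusted p = 0.0048, adjusted p = 0.781), and week 3 minus week 1 was -0.29 (adjusted p = 0.316).

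Rpl39 had 8.47, 7.84 and 8.69 in normal vehicle pools of weeks 1, 2 and 3, and in all groups week 3 lay above week 1. Week 3 minus week 1 was 0.41 (SE 0.161, adjusted p = 0.337), and week 3 minus week 2 was 0.47 (adjusted p = 0.401), to which the normal vehicle pools contributed 0.85. Rpl37a, a zinc-binding protein of the large subunit, was the most variable member. It had 11.35, 11.55 and 12.23 in STZ FK1706 pools, 11.54, 11.59 and 12.05 in STZ vehicle pools and 11.47, 12.42 and 11.40 in normal vehicle pools. High values thus fell in week 3 of both STZ groups and in week 2 of the normal group, and the difference of week 3 minus week 1 was 0.44 (SE 0.238, adjusted p = 0.466).

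The week 2 normal pool held the highest value of Rpl37a and the lowest values of Rpl39 and Rps15a. Other members also had an extreme there. It was the highest array for Rpl4, Rpl18, Rpl21, Rpl23, Rpl23a, Rpl41, Rplp0, Rps15 and Rps28. For Rpl24, Rpl26, Rpl27, Rps3, Rps3a and Rps16 it was the lowest. How often all genes had an extreme in that pool was not counted. In week 2 the 10 skeletal muscle markers above the filter had a median difference of -1.93 for STZ vehicle minus normal vehicle, against 0.36 in week 1 and 0.14 in week 3, so muscle markers were lower in STZ vehicle than in normal vehicle in that week. Their part in these values was not tested.

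Some smaller week differences had 1 direction in every group, which many genes had. Between weeks 2 and 1, 5 members rose and 2 fell in all 3 groups, where 1000 and 864 of 6995 genes did. Between weeks 3 and 2, 5 members rose and 5 fell, where 1027 and 1220 genes did. Between weeks 3 and 1, 6 members rose and 6 fell, where 1260 and 1307 genes did. Rpl6, a large-subunit protein, had 11.94, 12.00 and 11.83 in STZ FK1706 pools of weeks 1, 2 and 3, 11.98, 11.98 and 11.86 in STZ vehicle pools and 11.98, 11.96 and 11.88 in normal vehicle pools. Week 3 was the lowest in every group, and week 3 minus week 2 was -0.12 (SE 0.056, adjusted p = 0.490). Rps28, a small protein near the exit of the messenger RNA channel, was higher in week 2 than in week 1 in every group, by 0.10, 0.21 and 0.17 in STZ FK1706, STZ vehicle and normal vehicle pools, a difference of 0.16 (adjusted p = 0.828). Rpl35a, another gene mutated in some patients with Diamond-Blackfan anaemia, was higher in week 3 than in week 1 in every group, with a difference of 0.17 (adjusted p = 0.372).

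The remaining ends of the ranges also missed the threshold. Week 2 minus week 1 was -0.15 for Rps15a, -0.13 for Rps9, 0.14 for Rps24 and 0.40 for Rpl37a. Week 3 minus week 2 was -0.12 for Rpl23 and -0.09 for Rpsa, and 0.20 for Rpl11 and 0.22 for Rpl27. Rpl11, Rpl23 and Rpl27 are proteins of the large subunit. Week 3 minus week 1 was -0.11 for Rpl6 and -0.09 for Rpl23. Rpl37a in weeks 2 and 1, and Rpl6 in weeks 3 and 1, had values that did not overlap between the weeks. The other pairs listed here overlapped. Without overlap, 2 members were higher and 1 lower in week 2 than in week 1, where 419 and 345 of 6995 genes were. For week 3 against week 1 it was 3 higher and 1 lower, where 667 and 653 genes were.

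**Figure D4:**
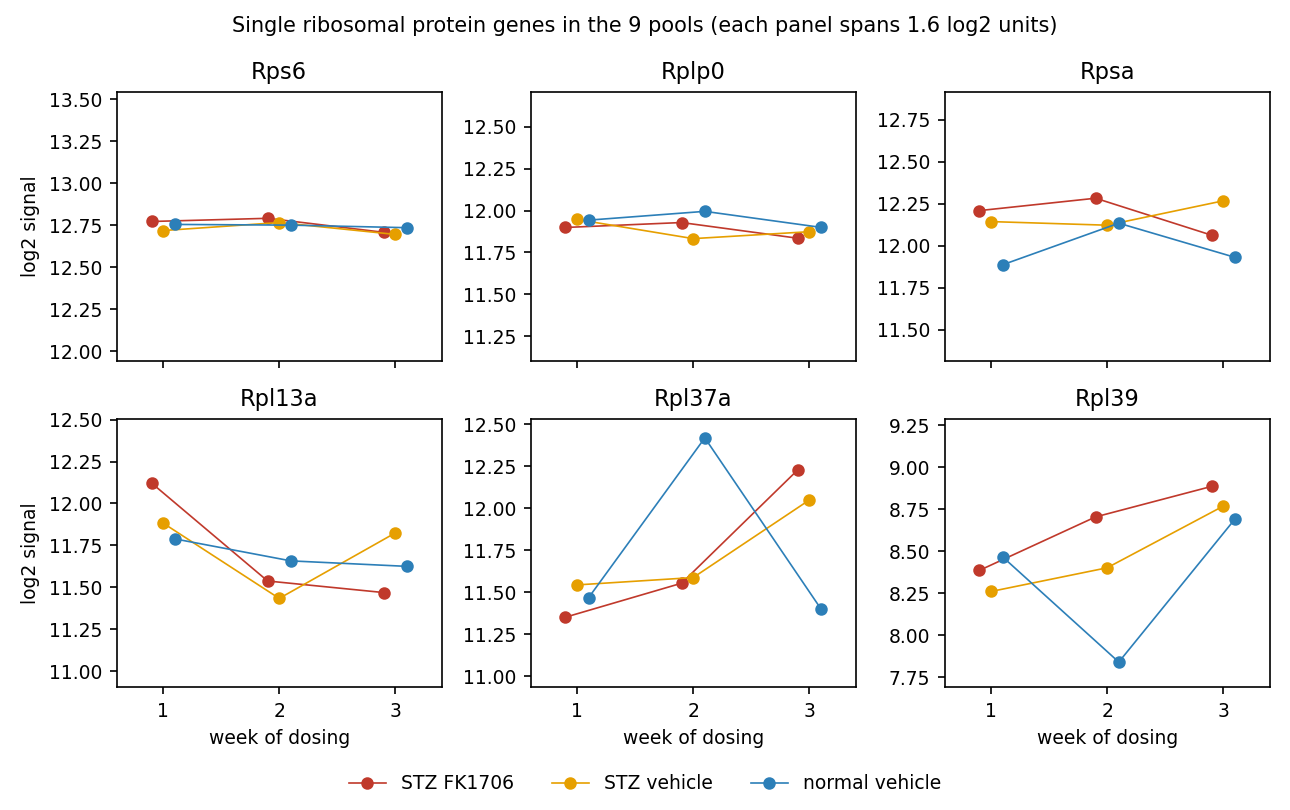
Log2 signal of 6 members in the 9 pools by week, each panel spanning the same height; lines join the pools of a group. Rps6 and Rplp0 stay nearly level, Rpl13a is highest in week 1 in every group, and Rpl37a (12.42) and Rpl39 (7.84) stand apart in the week 2 normal vehicle pool.

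Whether a group difference changed steadily over the weeks was tested with a linear week term. By limma, 0 of 40 members passed for STZ vehicle against normal vehicle, STZ FK1706 against STZ vehicle or STZ FK1706 against normal vehicle, and neither did any gene (0% in each). At an unadjusted p under 0.05 there were 1 member (Rps15a, against 4.09% of all genes), 2 members (Rpl13a and Rpl27, against 3.49%) and 4 members (Rpl13a, Rpl23, Rps15a and Rps29, against 4.87%). The slope of Rpl13a for STZ FK1706 minus STZ vehicle was -0.30 per week (SE 0.107, adjusted p = 0.999) and that of Rpl27 was 0.28 (SE 0.112, adjusted p = 0.999).

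The members differed in how steady they were. Over the 9 arrays the median ratio of highest to lowest signal was 1.24 in the members, 1.38 in all genes tested and 1.21 in the 555 other genes of the brightest 5%. The residual SD of the fit, the spread left after group and week, had a median of 0.0979 in the members, 0.134 in all genes and 0.0808 in those other bright genes. Ribosomal protein genes therefore spread less than the median gene and not less than other bright genes. By residual SD, Rps6 was the steadiest (0.0209, a 1.07-fold range). It was followed by Rpl6 (0.0275, 1.13-fold) and Rpl5 (0.0347, 1.13-fold), which with Rpl11 carries the smallest ribosomal RNA. The residual SD leaves out changes with group and week. Over the 9 arrays Rpl7 (1.11-fold), Rps23, Rplp0 and Rpl7l1 (1.12-fold each) ranged less than Rpl6 and Rpl5. Rpl37a (0.468, a 2.10-fold range), Rpl39 (0.257, 2.07-fold) and Rps15a (0.225, 1.56-fold) were the most variable by residual SD. Rpl13a (0.191) had a wider range than Rps15a, 1.61-fold.

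Of the 34 probe sets that list a ribosomal protein gene among several symbols, 0 passed in any of the 6 comparisons in a limma fit of 9521 probe sets. Of all 9521 probe sets, 0.063% passed for STZ vehicle against normal vehicle, 0% for STZ FK1706 against STZ vehicle and against normal vehicle, 0% for week 2 against 1, 0.0105% for week 3 against 2 and 0.042% for week 3 against 1. At an unadjusted p under 0.05 there were 4 of the 34 for STZ vehicle against normal vehicle (8.73% of all probe sets). For STZ FK1706 there was 1 against STZ vehicle (3.39%), and there were 2 against normal vehicle (8.2%). Between weeks there were 4 for week 2 against 1 (5.7% of all probe sets), 0 for week 3 against 2 (10.3%) and 3 for week 3 against 1 (12.9%). The median differences of the 34 were -0.03 for STZ vehicle minus normal vehicle and 0.00 for STZ FK1706 minus STZ vehicle. For STZ FK1706 minus normal vehicle the median was -0.02. Between weeks the medians were 0.02 for week 2 minus 1, 0.06 for week 3 minus 2 and 0.06 for week 3 minus 1. Those of the members were 0.01 in each. Many ribosomal protein genes have processed pseudogene copies, so a probe set may read more than 1 locus.

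Genes that work with the ribosome were read from the same fit. None of the tested elongation factors (9), initiation factors (34), other TOP messenger RNAs (13), ribosome assembly factors (33), mTOR and S6 kinase pathway genes (21) or mitochondrial ribosomal proteins (69) passed in any of the 6 comparisons. For STZ vehicle minus normal vehicle their medians were 0.02, 0.02, 0.01, 0.03, 0.09 and -0.05 in that order, and for STZ FK1706 minus STZ vehicle they were -0.04, 0.00, -0.01, -0.03, 0.02 and 0.02. The medians of all genes were 0.00 in both.

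Eef1a1, the elongation factor that brings aminoacyl-tRNA to the ribosome and whose messenger RNA carries a TOP motif, had 12.93 ± 0.114 in STZ FK1706 pools, against 13.25 ± 0.058 in STZ vehicle pools (SD, n = 3 each) and 13.28 ± 0.023 in normal vehicle pools. It was lower with FK1706 in each week, with differences of -0.34, -0.49 and -0.14 against STZ vehicle. The difference was -0.32 (SE 0.062, unadjusted p = 0.000292, adjusted p = 0.999), and against normal vehicle -0.35 (adjusted p = 0.140). Neither passed, and the members' median in the same comparisons was 0.00 and -0.02. Eef1a1 was named because it had the largest moderated t of its list.

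Other genes with the largest moderated t also missed the threshold. For STZ vehicle against normal vehicle they included Nop56, a nucleolar protein of the particles that methylate ribosomal RNA (0.44, limma adjusted p = 0.465). Eif2s3, a subunit of the factor that delivers the initiator tRNA, had 0.36 in that comparison (limma adjusted p = 0.423). Rps6ka2, a kinase of the ribosomal S6 kinase family, had 0.28 there (limma adjusted p = 0.441). For STZ FK1706 against normal vehicle they included Ddit4, an inhibitor of mTOR signalling (0.46, adjusted p = 0.313), Rptor, the mTOR partner raptor (0.47, adjusted p = 0.522), and Mrps34 of the mitochondrial small subunit (-0.46, adjusted p = 0.267). Fkbp1a, the immunophilin FKBP12, had -0.13 for STZ vehicle minus normal vehicle (adjusted p = 0.575) and 0.11 for STZ FK1706 minus STZ vehicle (adjusted p = 0.999).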

How the data were processed

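The authors' deposited values are 1 intensity per probe set and array on a linear scale, made with MAS5 per the submitters' processing notes. No version is given in the sources used here. These values are not scaled to a common level. Log2 values with an offset of 18.7 (the 10th percentile of all values) were quantile-normalized. Of 15866 probe sets, 12783 had 1 symbol, 312 several and 2771 none. Entrez identifiers placed 12748 of them, and 42 of the 44 members, in the GRCr8 gene table, and 0 symbols changed. Rps9 and Rpl37a were not placed. Start windows were looked up by identifier, or by symbol where that found none, so the window of Rpl37a may rest on its symbol. The brightest probe set stood for a gene. limma 3.58.1 in R 4.3.3 (lmFit, eBayes with a trend) fitted group and week over all 9 arrays leaving 4 residual degrees of freedom. The week term is a block, since the labels sample each group once in every week. Once group means were removed, r between same-week arrays ran from 0.0151 to 0.330. Tests were two-sided, with Benjamini-Hochberg adjustment over 6995 genes and a threshold of 0.05. The slope model had 2 residual degrees of freedom. The fit was tested on simulated data. Members, lists and rules were chosen with earlier results of these data known. Named members were the 3 highest and 3 lowest in each comparison, the 5 brightest and 5 dimmest, those below the filter, the 3 steadiest and 3 most variable, Rplp0, Rplp1, Rplp2, Rpsa, Rps6, Rpl3, Rps19 and paralogs. Genes of the pathway lists were taken from the up to 4 with the largest moderated t. Members with an unadjusted p under 0.05, and those with the same sign in all weeks, were named after their values were seen. Alternatives were another scaling, offset, filter, probe set rule or variance prior, no week term, and leaving out arrays or weeks.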

Additional observations from a re-analysis of the deposited data

How the results depend on the processing

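Of 1052 recomputed differences of named members, 1006 kept their sign and their side of the threshold, 34 changed sign without passing, and 12 newly passed, 11 of them on the deposited scale. On the deposited scale the members' median difference was -0.11, -0.056 and -0.18 for STZ vehicle minus normal vehicle, STZ FK1706 minus STZ vehicle and STZ FK1706 minus normal vehicle, and -0.16, -0.25 and -0.43 for week 2 minus 1, 3 minus 2 and 3 minus 1. There 1 of 40 members (Rpl18) passed for STZ FK1706 against normal vehicle and 2 (Rpl13a and Rps9) for week 2 against 1. For week 3, 24 of 40 passed against week 2 and 38 of 40 against week 1. All of these were lower. Of all 6995 genes, 90, 164, 1615 and 5100 passed in the same order. The member shares for week 3 lie above those of all genes. The medians of all genes there were -0.23 and -0.43, near those of the members. Centred on the median, the members' medians for week 3 minus 2 and 3 minus 1 were -0.091 and -0.083, and 8 genes passed for week 3 against 1. In no other setting that kept all 9 arrays did a member pass.

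The number of genes that passed was small and moved with the settings, and the cause was not tested. It was 6 for STZ vehicle against normal vehicle, 0 for STZ FK1706 against STZ vehicle and 1 in each other comparison. With no filter it was 0 for both comparisons with normal vehicle (788 and 776 by limma's unadjusted p under 0.05) and 0 for weeks 2 and 3 against 1 (548 and 1215). With the mean of all probe sets it was 3 for STZ vehicle against normal vehicle and 0 for weeks 2 and 3 against 1 (409 and 917). With a prior without a trend it was 0 in all 5 comparisons that had any (382 to 923). With trimmed-mean scaling and with median centring it was 0 for week 2 against 1 (436 and 432), and with the filter at the 60th percentile 9 for week 3 against 1. Week labels pair the arrays, and with no replicate block 1 gene passed for STZ vehicle against normal vehicle. The missing block changed no member's call. Without week 1 it was 0 for both comparisons with normal vehicle (684 and 780), and without week 3 it was 1 for STZ vehicle and 0 for STZ FK1706 (401). Without week 2 the members' median for STZ vehicle minus normal vehicle was -0.053.

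Leaving out 1 array at a time gave 0 to 10, 0 to 0 and 0 to 2 genes in the 3 group comparisons in the order above, and 0 to 4, 0 to 2 and 0 to 9 in the week comparisons. Members numbered 0 to 1 for STZ vehicle against normal vehicle (Rps15a, without the week 1 normal pool) and 0 elsewhere. At limma's unadjusted p under 0.05 there were 0 to 5, 0 to 2 and 0 to 8 of 40 members between groups. Of 6995 genes there were 424 to 943, 209 to 329 and 413 to 862 in the same order. Between weeks there were 2 to 5, 1 to 7 and 1 to 6 members. Genes numbered 320 to 444, 520 to 772 and 543 to 1042 there. The members' medians ranged from -0.05 to 0.00, -0.01 to 0.03 and -0.04 to -0.01 between groups, and from -0.01 to 0.03, -0.02 to 0.03 and 0.00 to 0.04 between weeks. A group left with 2 pools is assumed to vary like the others. With 3 arrays per group, the number of arrays limits the precision, and for the 4 members below the filter so does their low signal.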
